A study of Mus musculus with 4 samples.

Results

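RUNX1 binding at the Hox cluster genes of the fetal mouse ovary was described from ChIP-seq peaks. The Hox cluster genes were the 39 curated RefSeq protein-coding genes named Hoxa, Hoxb, Hoxc or Hoxd with a number from 1 to 13, out of 21000 curated protein-coding genes. A peak was counted with them where the nearest transcription start site (TSS) belonged to 1 of the 39 genes, or where the peak lay between the first and the last Hox gene of a cluster. This gave 29 peaks, of 10490 on assembled chromosomes and 10494 in the whole list. The rule used position alone and no measured value, but the set was chosen with earlier results of these data known.

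The ovaries came from CD1 mouse embryos, an outbred stock with no engineered allele named in the labels, at E14.5, and were freed of the mesonephros and frozen. By the labels, chromatin of 80 to 100 pooled ovaries, 20 to 30 μg, went into each ChIP (the study's methods give a higher number of ovaries) with 10 μl of an antibody to RUNX1, in 2 RUNX1 libraries from different pools, with 2 input libraries made without antibody. The 2 RUNX1 libraries were merged before peaks were called, so each peak has 1 position, 1 fold enrichment and 1 p-value and no error between replicates, and the list gives no read number for a peak. It does not say either whether a fold is relative to input or to the local background. The chromatin was that of whole ovaries, so the cells in which a site was bound cannot be told apart. RNA was not measured in these libraries, and neither the identity of the tissue nor the activity of a Hox gene was checked against marker genes.

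Hox genes encode homeodomain transcription factors that give cells along the body axis their regional identity. In mammals they stand in 4 clusters in which all genes read the same way, and genes of the same number in different clusters are paralogues descended from 1 ancestor. The genes at the 3′ end (groups 1 to 4, called anterior here) are switched on early and act towards the head, those of groups 5 to 8 (central) act in the trunk, and those of groups 9 to 13 (posterior) act in the tail, the distal limb and the urogenital tract. In the female tract, posterior genes of the Hoxa cluster are known for patterning the Müllerian duct into oviduct, uterus, cervix and vagina. RUNX1 is a runt domain transcription factor of the pre-granulosa cells, the supporting cells of the fetal ovary, and the core of its binding site reads TGTGGT or TGCGGT.

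Sequences of 3 of the bound stretches show what the peaks of high fold look like. They were taken from the Hox cluster peaks with a fold of 14 or more that hold no UTR base, each of 300 bases on mm10, plus strand, read from the RefSeq copy of the genome. The Hoxd11 coding peak (chr2:74682816-74683115) had the highest fold of the 29 peaks and holds no RUNX core, and capitals mark its 39 CpG dinucleotides. In the Hoxa4 promoter peak (chr6:52191936-52192235), capitals mark a match to the joint PBX-HOX site TGATNNAT. In the peak between Hoxb7 and Hoxb6 (chr11:96293337-96293636), capitals mark the RUNX core.
Hoxd11 coding exon: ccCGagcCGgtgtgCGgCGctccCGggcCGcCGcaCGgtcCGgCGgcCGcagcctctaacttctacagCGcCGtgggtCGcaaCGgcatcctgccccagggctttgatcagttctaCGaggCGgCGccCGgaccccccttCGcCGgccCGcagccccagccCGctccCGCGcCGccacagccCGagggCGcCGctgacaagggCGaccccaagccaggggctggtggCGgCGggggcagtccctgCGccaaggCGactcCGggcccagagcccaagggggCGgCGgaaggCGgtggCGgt
Hoxa4 promoter: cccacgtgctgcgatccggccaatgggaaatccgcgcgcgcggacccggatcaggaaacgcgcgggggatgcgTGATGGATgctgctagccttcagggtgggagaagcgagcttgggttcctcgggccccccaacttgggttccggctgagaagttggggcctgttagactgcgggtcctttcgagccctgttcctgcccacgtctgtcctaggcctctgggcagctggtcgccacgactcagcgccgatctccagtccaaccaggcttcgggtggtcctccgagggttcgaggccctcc
Hoxb7 to Hoxb6 interval: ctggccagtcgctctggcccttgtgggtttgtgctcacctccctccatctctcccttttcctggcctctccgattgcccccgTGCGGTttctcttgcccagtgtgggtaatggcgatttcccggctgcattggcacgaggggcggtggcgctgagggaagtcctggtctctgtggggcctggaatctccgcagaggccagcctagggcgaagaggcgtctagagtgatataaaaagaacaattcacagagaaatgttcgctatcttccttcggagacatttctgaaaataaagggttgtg

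Of the 39 Hox genes, 17 (43.6%) were the gene nearest to at least 1 RUNX1 peak, beside 39.1% of all protein-coding genes. Hoxc4 was nearest to 3 peaks and Hoxd11 to 2, so 5.13% of Hox genes had 2 or more, beside 6.13% of protein-coding genes. A peak covered the TSS of Hoxb9, Hoxd3 and Hoxd11, which is 7.69% of the 39 genes, beside 17.0% of protein-coding genes. A TSS lay within 10 kb of a peak for 27 Hox genes (69.2%), beside 43.9%. These shares are a description with no test, and neighbouring Hox genes within 10 kb of each other can share the same peak.

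The 4 clusters are short and dense in genes, and so were their peaks per length but not per gene. The clusters spanned 492.0 kb and held 26 peaks, or 5.28 per 100 kb, beside 0.385 per 100 kb over all chromosomes. They also held the TSS of 64 curated genes, 25 of them noncoding, which gave 0.406 peaks per gene beside 0.401 peaks per gene in the whole genome. The clusters differed among themselves. The Hoxd cluster held 11 peaks in 96.92 kb, or 11.3 per 100 kb, and 0.786 per gene. Hoxc held 6 in 115.7 kb (5.18 per 100 kb, 0.462 per gene) and Hoxa 5 in 105.5 kb (4.74 per 100 kb, 0.238 per gene). Hoxb, the longest at 173.9 kb, held 4 (2.30 per 100 kb, 0.250 per gene), and none of these differences between clusters has a replicate error.

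**Figure D1:**
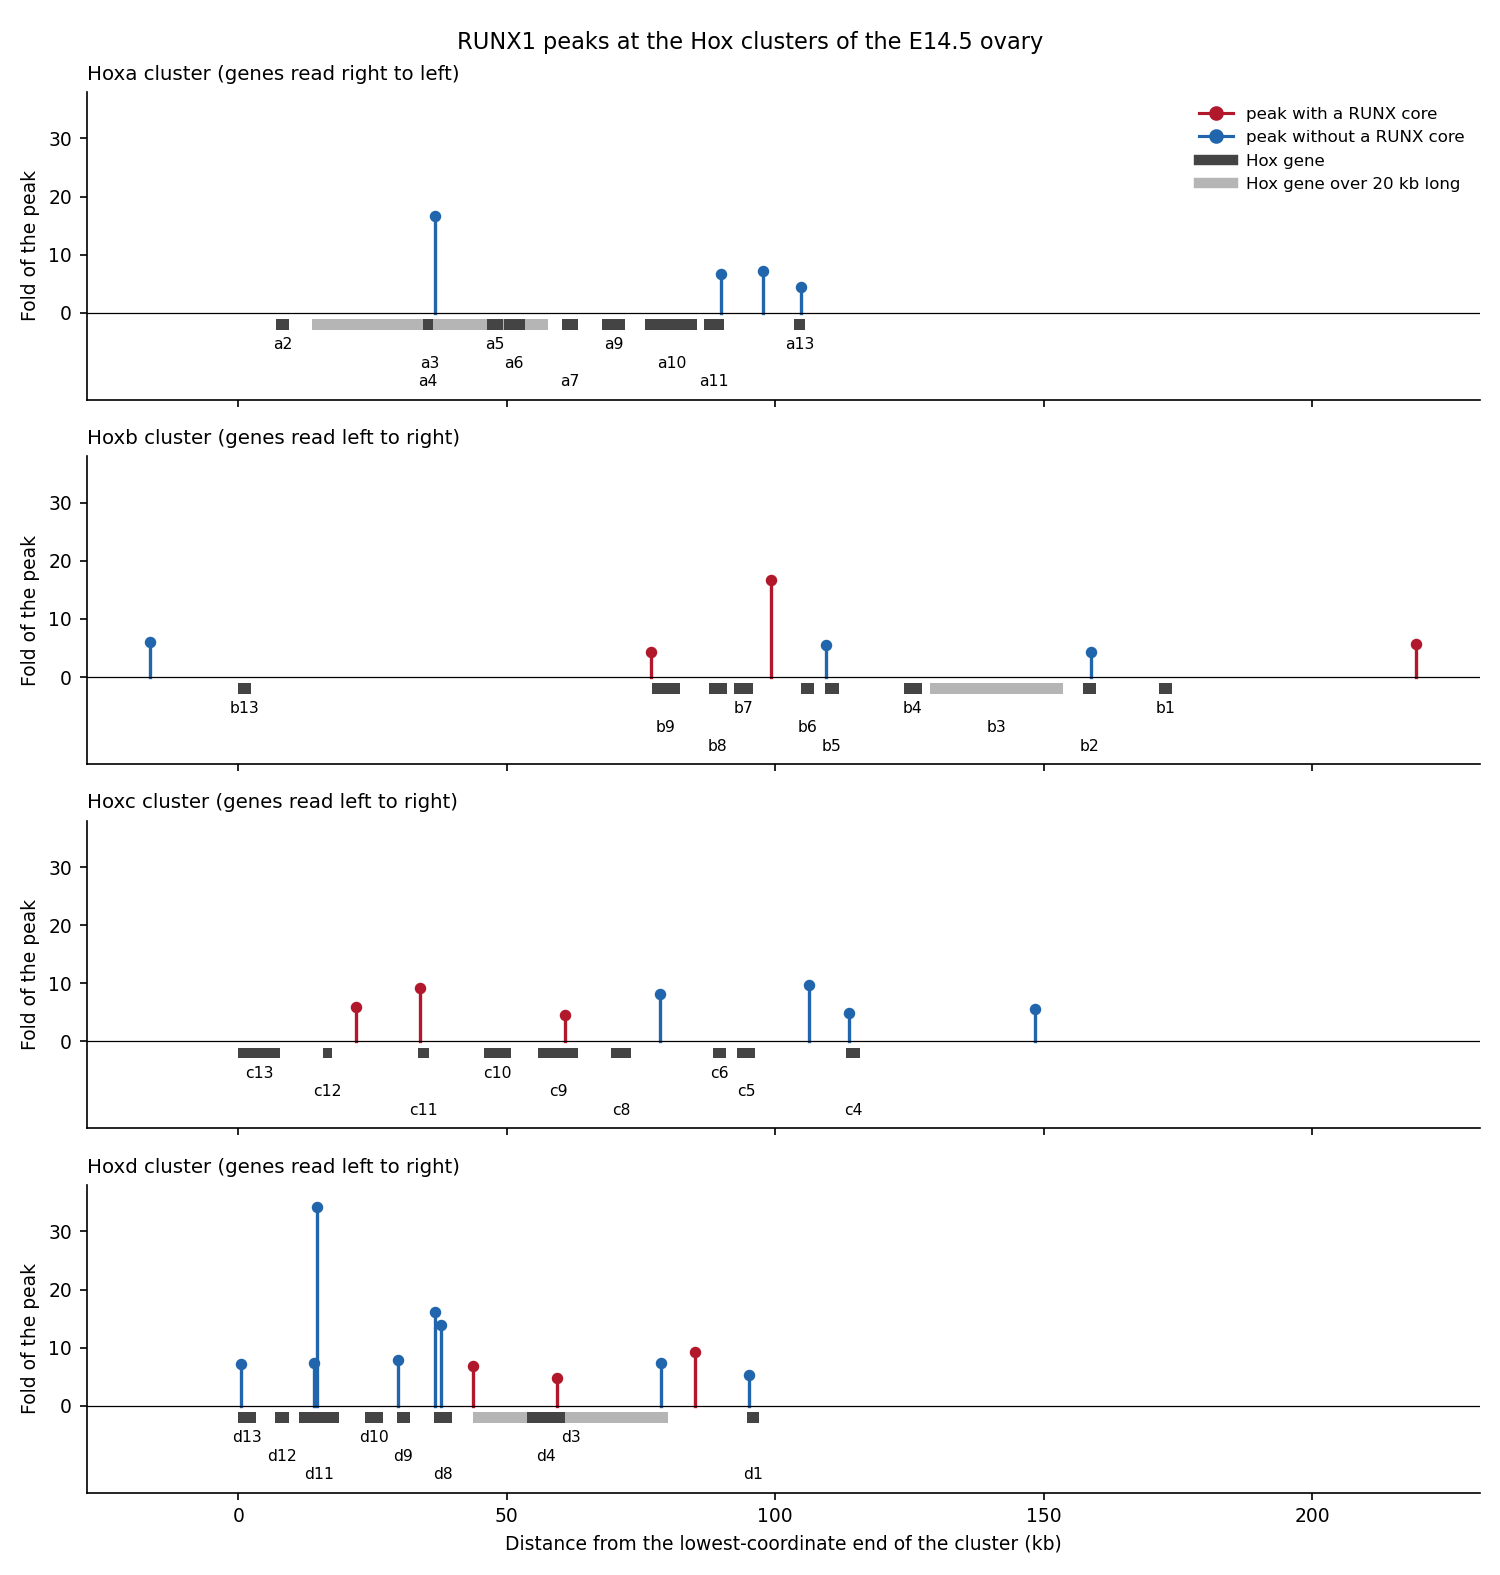
RUNX1 peaks along the 4 Hox clusters, with 28 of the 29 peaks drawn. The x axis is the distance in kb from the end of the cluster with the lowest coordinate, each stem is a peak with its fold as height (red with a RUNX core, blue without), and boxes under the line are the Hox genes, with genes over 20 kb long in light grey. The 11 Hoxd peaks run from Hoxd13 to Hoxd1, while no peak lies between the 2 peaks at Hoxa4 and Hoxa11.

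By median and quartiles of fold, the peaks of the Hox clusters lay slightly above the list as a whole. Their folds ran from 4.27 to 34.25 with a median of 7.17 and quartiles of 5.55 and 9.26, beside a median of 6.41 and quartiles of 5.02 and 8.89 over all peaks. Of the 29, 10 (34.5%) had a fold of 8 or more, beside 32.1% of all peaks, and 9 (31.0%) had a peak caller's p-value under 1e-20, beside 33.6%. In fold, 6 of the 29 stood in the top 10% of all peaks, which is more than 10% of the 29 and was not tested. Among them were the peaks at Hoxd11 (34.25), at Hoxa4 (16.66), between Hoxb7 and Hoxb6 (16.66) and at both starts of Hoxd8 (16.20 and 13.88), and the Hoxc cluster had none of them. Folds in the list are coarse: the value 16.66 was given to 38 peaks, and all peaks shared 736 distinct values.

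**Figure D2:**
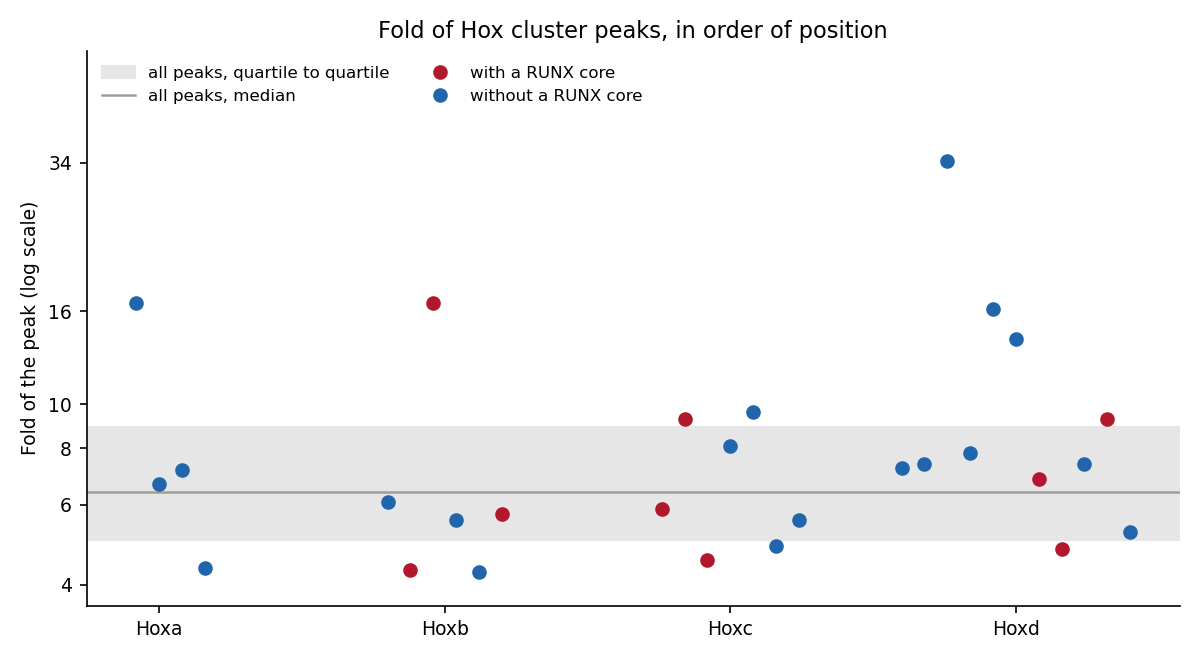
Fold of 28 of the 29 Hox cluster peaks on a log axis, grouped by cluster and, within a cluster, in order of position, with red for peaks that hold a RUNX core. The grey band and line are the quartiles (5.02 and 8.89) and the median (6.41) of all 10490 peaks, and the point at 34.25 in Hoxd is the Hoxd11 coding peak.

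In the Hoxa cluster (chromosome 6, 11 genes on the minus strand), 3 of the 5 peaks lay at the posterior end. The peak with the highest fold of this cluster, 16.66, lay 233 bp before Hoxa4, which acts in the cervical spine, and at the same time in intron 2 of the long Hoxa3 gene. No peak lay over the 52963 bp from there to Hoxa11, a stretch that holds the starts of Hoxa3, Hoxa5, Hoxa6, Hoxa7, Hoxa9 and Hoxa10.

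Hoxa11, which patterns the uterus, the forearm and, with its paralogues, the kidney, had a peak inside the gene and another upstream of it. A peak of fold 6.66 (chr6:52245199-52245498) lay in its coding exon 1 and also covered the TSS of the antisense RNA Hoxa11os, to which the nearest-TSS rule gave it. A peak of fold 7.17 (chr6:52252996-52253295) lay 7186 bp upstream of Hoxa11, towards Hoxa13. Hoxa13, which acts in the digits and the terminal urogenital tract, had a peak of fold 4.36 in coding exon 1 (chr6:52259991-52260290), lower in fold than all but 8.77% of peaks. Hoxa2, Hoxa3, Hoxa5, Hoxa6, Hoxa7, Hoxa9 and Hoxa10 were nearest to none.

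The Hoxb cluster (chr11:96194316-96368253, 10 genes on the plus strand) had 1 peak of high fold and 5 below the median of all peaks. The high one (16.66) lay between Hoxb7 and Hoxb6, 5438 bp before the TSS of Hoxb6 and in exon 2 of the antisense RNA Hoxb5os, and it holds a TGCGGT core. Hoxb9, a thoracic gene, had its TSS covered by a peak of fold 4.32 (chr11:96271053-96271352), and Hoxb5 had a peak of fold 5.55 in coding exon 1 (chr11:96303677-96303976). Both peaks fell below the median fold of 6.41.

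The other 3 Hoxb peaks lay at the anterior end or outside the genes. A peak of fold 4.27 (chr11:96353047-96353346), the lowest of the 29, lay in the last coding exon of Hoxb2 and 48 bp from the TSS of the antisense RNA Hoxb3os. Hoxb13, the most 5′ gene of the cluster, which acts in the tail bud and prostate, was nearest to a peak of fold 6.08 that lay 16300 bp before it (chr11:96177717-96178016). Hoxb1, a hindbrain gene, was nearest to a peak of fold 5.72 that lay 47825 bp past its TSS (chr11:96413583-96413882). The last 2 peaks were outside the cluster and belong to the set only by their nearest TSS. Hoxb2, Hoxb3, Hoxb4, Hoxb7 and Hoxb8 were nearest to none.

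In the Hoxc cluster (chr15:102921131-103036852, 9 genes on the plus strand), no peak passed a fold of 9.63, and 3 peaks lay in Hox genes and 4 between or beyond them. Hoxc11, a posterior gene of the limb and lumbar spine, had a peak of fold 9.26 in coding exon 1 (chr15:102954800-102955099), with a TGCGGT core. Hoxc9 had a peak of fold 4.53 in its first coding stretch, in exon 2 (chr15:102981761-102982060), with a TGTGGT core, and the nearest TSS was that of the noncoding Gm36878. Between Hoxc12 and Hoxc11, a peak of fold 5.89 (chr15:102942917-102943216) lay 4730 bp from the TSS of Hotair, a long noncoding RNA read against the Hox genes there.

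From the interval between Hoxc8 and Hoxc6 onwards lay the other 4 of the 7 Hoxc peaks, 1 of them past the cluster, and none held a RUNX core. Hoxc8, which acts in the thoracic spine and motor neurons, was nearest to a peak of fold 8.10 that lay 8904 bp past its TSS and upstream of Hoxc6 (chr15:102999443-102999742). Hoxc4, the only Hox gene nearest to 3 peaks, had peaks 6804 bp upstream (fold 9.63, chr15:103027292-103027591), in coding exon 1 (4.86, chr15:103034797-103035096) and 34892 bp past its TSS outside the cluster (5.55, chr15:103069287-103069586). Over all protein-coding genes, 204 were nearest to 3 or more peaks, and the most was 6. Hoxc5, Hoxc6, Hoxc9, Hoxc10, Hoxc12 and Hoxc13 were nearest to none.

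The Hoxd cluster (chr2:74668225-74765142, 9 genes on the plus strand) held the most peaks and the peak of highest fold. Hoxd11, which with Hoxa11 builds the forearm and takes part in the kidney, carried 2 peaks 304 bp apart. The first, of fold 7.40 (chr2:74682212-74682511), covered a TSS of Hoxd11. The second, of fold 34.25, lay wholly in the coding part of exon 1, with its midpoint 642 bp past the TSS, a GC content of 77.0% and no RUNX core. Its fold was above that of 99.29% of all peaks.

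Hoxd8, the central gene of this cluster, had the next highest folds. A peak of 16.20 (chr2:74704624-74704923) began 9 bp past its upstream TSS. A peak of 13.88 (chr2:74705805-74706104) lay past its downstream TSS, 204 bp from the TSS of the noncoding Gm38462. The midpoint of the latter was in coding sequence, and 123 of its bases were UTR in a curated transcript. The 2 peaks were 881 bp apart, and neither holds a RUNX core. Hoxd13, needed for digits and external genitalia, had a peak of fold 7.22 in coding exon 1 (chr2:74668515-74668814), and Hoxd9 a peak of fold 7.82 in exon 1 (chr2:74697877-74698176). Hoxd10 and Hoxd12, which stand among these posterior genes, were nearest to none, though both had peaks within 10 kb.

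Towards the anterior end of the Hoxd cluster, 5 peaks had folds of 4.81 to 9.26. A peak of fold 6.85 with a TGCGGT core covered the TSS of Hoxd3 (chr2:74711715-74712014), which acts in the cervical spine. Further in, a peak of fold 4.81 lay in the first coding exon of Hoxd4 and 1380 bp from Mir10b, a microRNA of the cluster (chr2:74727450-74727749). A peak of fold 7.40 lay in the last coding exon of Hoxd3 (chr2:74746719-74747018), and another of 9.26 with a core 6 bp from its midpoint lay in exon 2 of the noncoding Gm14424 (chr2:74753128-74753427). Hoxd1, at the 3′ end, had a peak of fold 5.22 in coding exon 1 (chr2:74763247-74763546), in the promoter of the antisense RNA Haglr. Hoxd4, Hoxd10 and Hoxd12 were nearest to none.

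Read across the clusters, the posterior genes were nearest to a peak in 8 of 16 cases. The count was 5 of 12 for the anterior genes and 4 of 11 for the central genes. Over all protein-coding genes the share was 39.1%. The anterior share (41.7%) and the central share (36.4%) lay close to it, and the posterior share lay above it. With only 11 to 16 genes in a region, no order of the regions can be read from these shares. The differences between these regions were not tested. With noncoding TSSs counted too, paralogue group 11 was the only group in which every gene was nearest to a peak. Hoxa11, Hoxc11 and Hoxd11 each had a peak in coding exon 1, but the rule gave that of Hoxa11 to Hoxa11os. Hoxa11 itself was counted through the peak 7186 bp upstream. The midpoints of the 3 exon peaks lay 462, 423 and 642 bp past the nearest TSS of the gene. Their folds were 6.66, 9.26 and 34.25. Group 13 had 3 of 4, and groups 1 and 8 had 2 of 3. No gene of group 2, 7, 10 or 12 was nearest to a peak. These group counts depend on the rule. With only protein-coding TSSs counted, further Hox genes joined, among them Hoxb2 of group 2 and Hoxc12 of group 12. Groups hold between 2 and 4 genes, so these counts are small.

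Many of the peaks in Hox genes sat past the TSS, in the first coding exon. The midpoint of 13 of the 29 peaks (44.8%) lay in Hox coding sequence, 11 of them in a first coding exon, whereas 14.9% of all peaks had the midpoint in any coding sequence and 12.8% in a first coding exon. Exons held 14 midpoints (48.3%, beside 31.1% of all peaks), promoters 8 (27.6%, beside 32.4%) and introns 0, beside 23.9%. The remaining midpoints were upstream of a gene in 3, downstream in 1 and intergenic in 3. A promoter here is the 1 kb before a TSS and outranks an exon or intron where transcripts overlap, and an exon outranks an intron. The Hoxa4 peak, in intron 2 of Hoxa3, thus counts as a promoter peak, so the 0 for introns depends on this order. Where exons and introns outranked promoters, 1 midpoint remained in a promoter, and no share of all peaks is given for that order.

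Of the 16 peaks within 1 kb of a Hox TSS, 12 (75.0%) had the midpoint past the TSS, beside 69.6% of the 7782 peaks within 1 kb of any protein-coding TSS. They lay farther from it. Their median midpoint was 365.0 bp past the TSS and that of all such peaks 107.0 bp. Between 250 and 750 bp past the TSS, a window chosen after the positions were seen, lay 10 of the 16 (62.5%), beside 24.0% of all such peaks. The 4 peaks with the midpoint before a TSS included those of Hoxa4, Hoxd3 and Hoxb9.

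**Figure D3:**
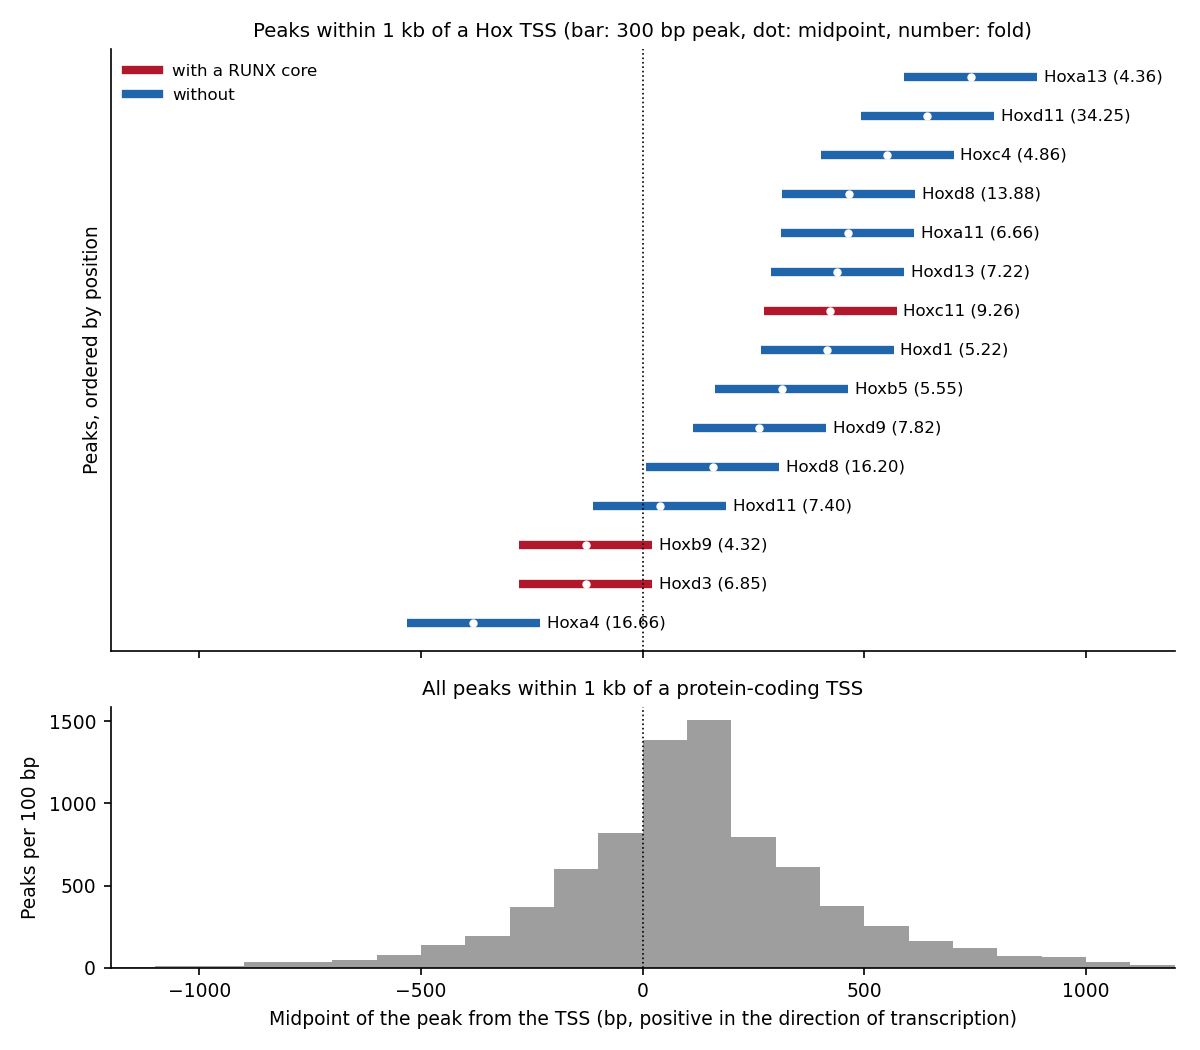
Position of 15 of the 16 peaks within 1 kb of a Hox TSS. The x axis is the distance from the TSS in bp, positive in the direction of transcription, each bar is a 300 bp peak with its midpoint as a dot, named by the nearest Hox gene with the fold in brackets (red with a RUNX core), and the histogram counts all 7782 peaks within 1 kb of a protein-coding TSS per 100 bp. Most Hox peaks lie 250 to 750 bp past the TSS, to the right of the crest of the histogram.

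Hox genes with a peak near the start differed in base composition from those without, as a description of the 39 genes. In the 2 kb around the TSS, the median GC content was 61.0% (52.6 to 67.3%) in the 14 genes with a peak within 1 kb and 54.0% (46.2 to 62.5%) in the other 25, with ratios of observed to expected CpG of 0.727 and 0.538. Both groups had a median of 1 RUNX core in this window. First coding exons with a peak had a median GC content of 67.1% (59.9 to 75.2%), and the 28 without had 62.2% (52.2 to 77.5%). The ranges overlapped in each case. Hoxa4 had the first coding exon richest in GC of all 39 genes, and its peak lay in the promoter and not in that exon.

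The Hox cluster peaks shared the base composition of the other peaks and not that of the clusters. Their GC content ran from 50.3% to 77.0% with a median of 66.0%, beside 66.3% over all peaks, and their median ratio of observed to expected CpG was 0.848, beside 0.813. The clusters were cut end to end into windows of 300 bp, and the 1586 windows that touched no peak had a median GC content of 48.3% and a median CpG ratio of 0.285.

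A RUNX core was found in 9 of the 29 peaks (31.0%), beside 39.9% of all peaks and 19.7% of the cluster windows without a peak. The words of the core differed. TGTGGT lay in 10.3% of the Hox cluster peaks, below both all peaks (19.5%) and the windows (16.2%). TGCGGT, which holds a CpG, lay in 20.7%, beside 23.7% of all peaks and 3.91% of the windows. The windows were poorer in GC, with a median of 48.3% beside 66.0% in the Hox cluster peaks. The shuffled core GTGTTG or GTGTCG, with the same bases in another order, lay in 13.8%, 16.2% and 13.9%. Of the 9 cores, 6 read TGCGGT and 3 TGTGGT, no peak held more than 1, and 5 lay within 50 bp of the midpoint. The Hoxb, Hoxc and Hoxd clusters had 3 each and the Hoxa cluster none in 5 peaks. The peaks with a core did not have the higher folds: their median was 5.89 and that of the 20 without was 7.31, whereas over all peaks the medians were 7.03 with a core and 6.11 without. The 9 cores are shown with 12 bases to either side, on the strand on which the core reads as above, with the core in capitals.
Hoxb9 TSS: ctggatatggaaTGCGGTgaggacggatga
Hoxb7 to Hoxb6 interval: cgattgcccccgTGCGGTttctcttgccca
Past Hoxb1: ggggcagctgttTGTGGTtttggcattttc
Hoxc12 to Hoxc11 interval: gccagacctctgTGCGGTgtgcgtctgtga
Hoxc11 coding exon: gacaacgcctacTGCGGTgggggagatgcg
Hoxc9 coding exon: ctcgcagtcgtcTGTGGTctatcaccctta
Hoxd3 TSS: ttatgacctattTGCGGTcgtcattggctg
Hoxd4 coding exon: caagcagcccgcTGTGGTctacccttggat
Gm14424 exon: gtctccttcgctTGCGGTttctggtcggct

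HOX proteins bind DNA together with PBX and MEIS proteins, and the joint PBX-HOX site can be written TGATNNAT. This word, searched on both strands, lay in 6 of the 29 peaks (20.7%), beside 2.69% of all peaks and 9.90% of the cluster windows without a peak. The difference rests on these 6 peaks and was not tested. No shuffled form of this word was searched, and the windows had a median GC content of 48.3%, beside 66.0% in the Hox cluster peaks. The 6 peaks came from all 4 clusters and had folds of 16.66 at Hoxa4, 4.32 at Hoxb9, 5.89 between Hoxc12 and Hoxc11, 5.55 past Hoxc4, 7.40 at Hoxd11 and 9.26 in Gm14424. The word starts like the GATA word TGATAA, and no match of one lay on a match of the other in these peaks. The matches are shown in capitals with 9 bases to either side.
Hoxa4 promoter: ggggatgcgTGATGGATgctgctagc
Hoxb9 TSS: tcgcccgatTGATTTATgtcggagct
Hoxc12 to Hoxc11 interval: cgtcgccgcTGATAGATgacgcgggc
Past Hoxc4: gggccgtgcTGATGGATggtcccctg
Hoxd11 TSS: aattcatctTGATTGATtctggtggt
Gm14424 exon: cacaccgggTGATTGATgaactctta

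The other words searched were at or below their shares over all peaks, or near them. The MEIS word TGACAG lay in 3 peaks (10.3%, beside 13.2%), and in the Hoxb9 peak it stood between the RUNX core and the PBX-HOX match. The GATA word, AGATAA or TGATAA, lay in 2 peaks (6.90%, beside 8.33%), and the forkhead word, TATTTAC or TGTTTAC, in 1 (3.45%, beside 3.24%), that of Hoxd9. The ETS word CCGGAAGT, in 4.66% of all peaks, and the CTCF core, in 1.35%, lay in none of the 29. The cluster windows without a peak, which were poorer in GC, held the MEIS word in 11.7%, the GATA word in 20.4% and the forkhead word in 8.51%. They held the ETS word in 0.504% and the CTCF core in 0.0631%. A match here is a run of letters and not a measured binding site.

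**Figure D4:**
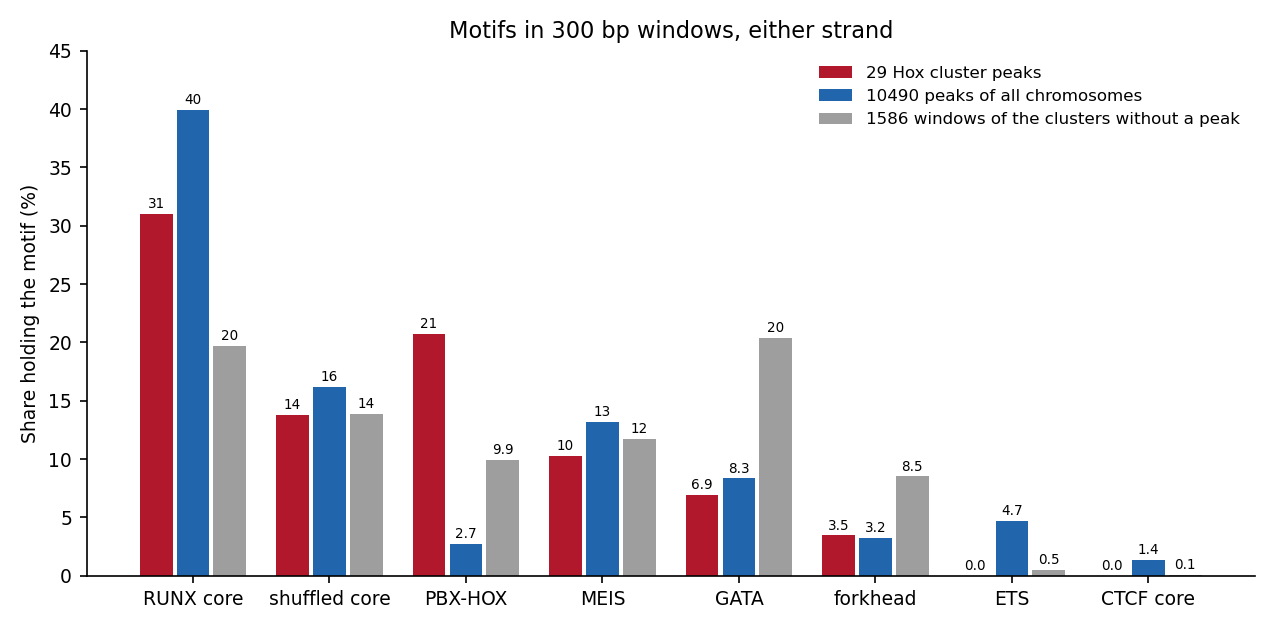
Share of 300 bp windows that hold each motif on either strand, in percent, for the 29 Hox cluster peaks, all 10490 peaks and the 1586 windows of the clusters that touch no peak. The PBX-HOX bar of the Hox cluster peaks stands at 20.7%, above those of all peaks (2.69%) and of the windows (9.90%). It rests on 6 peaks and was not tested. The RUNX core bar stands at 31.0%, between 39.9% and 19.7%.

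Noncoding genes took part of the Hox peaks. Of the 25 curated noncoding genes that start inside the clusters, 8 were nearest to a peak, and they took 9 of the 26 peaks there. The share over all protein-coding genes was 39.1%. No share over all noncoding genes is given, so the 8 cannot be read as many or few. Among these, by fold of the strongest peak, were Gm38462 (13.88), Gm14424 (9.26), Hoxa11os (6.66), Hotair (5.89), Mir10b (4.81), Gm36878 (4.53) and Hoxb3os (4.27). Peaks carry no strand, so a peak between a Hox gene and a noncoding RNA that starts beside it cannot be given to one of them. With only protein-coding TSSs counted, 5 genes, Hoxb2, Hoxc9, Hoxc12 and Hoxd4 among them, joined the 17, which made 56.4% of Hox genes beside 40.8% of protein-coding genes.

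Around the clusters, peaks outside the set were mostly farther off. The nearest peaks beyond the ends, which are not counted among the 29, lay 15230 bp past the Hoxa cluster on the Hoxa13 side and 10279 bp before the Hoxd cluster on the Hoxd13 side. The first had a fold of 16.66 (chr6:52276110-52276409), a GC content of 49.33% and Hottip, a noncoding RNA of the posterior Hoxa end, as the nearest gene. The second had a fold of 4.63 (chr2:74657647-74657946) and lay in an exon of Evx2, the homeobox gene beside Hoxd13. At the other 6 ends the nearest such peak was 60892 to 685376 bp away. At 3 of these ends a peak counted among the 29 lay nearer. These peaks lay 16300 bp before Hoxb13, 47825 bp past the TSS of Hoxb1 and 34892 bp past that of Hoxc4.

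Partners and relatives of the Hox genes were read from lists named in the methods. Of the 9 TALE genes, which encode the PBX, MEIS and PKNOX homeodomain partners of HOX proteins, 6 were nearest to a peak, beside the 39.1% of all protein-coding genes, which also stands beside the next 2 lists. Meis1 had 4 peaks, the strongest of fold 77.75 (chr11:19020385-19020684), which lay 1416 bp upstream of the gene, held a RUNX core and stood above 99.90% of all peaks. That fold is more than that of any Hox cluster peak. The strongest peaks of Pknox1 (9.72), Pbx3 (8.99) and Pknox2 (8.33) followed, and Pbx2, Pbx4 and Meis3 had none. Of 11 Hox-linked and ParaHox genes outside the clusters, 7 were nearest to a peak, with folds of 12.96 for Cdx1 and 11.57 for Gbx2 at the top, then 9.26 for Gsx1 and 5.55 for Cdx2. Evx1, Cdx4, Gsx2 and Pdx1 had none. Of the 16 protein-coding genes next to the clusters, 9 were nearest to a peak, with strongest folds of 4.63 to 7.64.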

How the data were processed

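RUNX1 ChIP-seq of E14.5 ovaries was analysed from the peak list the authors deposited. Per the submitters' processing notes and the study's methods, the authors mapped single-end reads to mm10 (Bowtie 1.2), kept unique hits, removed duplicates (Picard 1.110), merged the 2 replicates, called peaks with HOMER 4.9 and set each peak to 300 bp; bedtools 2.24.0 is also named. Values in the deposited list are each peak's position, the fold over background and the p-value of the authors' caller. Input and RUNX1 reads were not analysed here, and the list gives no depth per sample or per peak. It does not say which background the fold refers to.

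Peaks were assigned to the nearest TSS of 45756 curated transcripts (RefSeq annotation release 108, GRCm38, which is mm10) from the peak edge, with ties kept and exon gaps of up to 10 bp joined. The 4 peaks outside assembled chromosomes were left out. Coordinates count from 1. Scripts ran in Python 3.11.15 and recovered simulated positions and motifs. With merged replicates no test was possible, so shares stand beside those of all peaks or genes. The Hox genes except 1 item that is not reported here, noncoding genes nearest to a peak and up to 4 genes of each list (TALE, Hox relatives, neighbours) were named. Members and lists were chosen with earlier results of these data known.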

Additional observations from a re-analysis of the deposited data

How the results depend on the processing

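The count of 17 Hox genes nearest to a peak fell to 7 with only peaks of fold 8 or more and to 6 with only p-values under 1e-20, and rose to 27 when every gene within 10 kb of a peak was counted. It was 17 by peak midpoint, 14 within 1 kb, 18 by gene body and 22 with protein-coding starts only. The 29 peaks fell to 10 at a fold of 8 and to 9 under 1e-20. Peaks with a RUNX core fell from 9 to 3 with TGTGGT alone, to 3 with a T required after the core and to 5 in the central 100 bp, and were 11 in 500 bp. Promoter peaks fell from 8 to 1 where exons and introns outranked promoters. These falls follow from the settings themselves, which count fewer peaks, letters or bases or give exons priority. A Hox gene nearest to no peak can still hold one, as Hoxa3, Hoxb2, Hoxc9 and Hoxd4 did, where another gene had the nearer TSS. A stretch without a peak is one with nothing past the authors' limits in uniquely mapped sequence. No paired analysis was possible because the authors called peaks on merged replicates, and for the same reason no replicate could be left out.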
